A study of Mus musculus with 2 samples.

Results

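Cells take up and keep iron through a small set of proteins, and 9 of their genes are described here in primary mouse osteoblasts, the bone-forming cells. They are the 4 genes of the Steap family (Steap1 to Steap4), the transferrin receptor gene Tfrc, the iron importer gene Slc11a2, the iron exporter gene Slc40a1, the ferritin heavy chain gene Fth1 and the iron sensor gene Ireb2. The genes were listed by name, and every probe set that the platform annotation maps to one of these symbols alone was taken. This gave 27 probe sets of 34958 with a single gene name, for 9 of 18193 genes. The osteoblasts had been differentiated for 10 days with ascorbic acid and beta-glycerophosphate, kept overnight without serum, and given conditioned medium of PC-3 cells or of MDA-PCa2b cells for 6 hours. PC-3 and MDA-PCa2b are human prostate cancer lines, both derived from bone metastases, and the study asked how factors from each line change osteoblast transcripts. The sample records list 10% serum for both cultures, besides the overnight step without it. Each medium was represented by 1 culture and 1 Affymetrix array. The labels give no mouse strain, age or number of animals, and no osteoblasts in unconditioned medium were analysed here.

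Iron reaches most cells as ferric iron bound to transferrin, which the transferrin receptor carries into endosomes. There a Steap metalloreductase turns it into ferrous iron, the importer encoded by Slc11a2 (DMT1) moves it to the cytosol, ferritin stores it and ferroportin, the product of Slc40a1, exports it. Iron regulatory proteins, one of them encoded by Ireb2, bind iron-responsive elements in several of these transcripts when iron is scarce. In inflammation, tissues and macrophages are known to hold iron back from the circulation, and in osteoblasts excess iron is known to slow mineralisation.

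Osteoblasts in PC-3 medium had higher Steap4, Steap1 and Steap2 signals than osteoblasts in MDA-PCa2b medium, 10.1-fold, 2.52-fold and 1.60-fold by the brightest probe set of each gene. Slc11a2 was 1.88-fold and Fth1 1.57-fold higher, whereas Steap3, Tfrc, Slc40a1 and Ireb2 lay within 1.5-fold. None of the 9 genes was at least 1.5-fold lower, against 6.23% of all measured genes. At least 2-fold higher were 2 of the 9 genes, against 1.9% of the 10649 measured genes. A gene or probe set counts as measured where its signal exceeds the floor on both arrays. At least 1.5-fold higher were 5 of the 9, against 5.18% of those genes. This floor was the median signal of each array, 57.7 with PC-3 medium and 56.7 with MDA-PCa2b medium. The median log2 ratio was 0.65 over the 9 genes and -0.04 over all 10649. The 9 genes, and the other lists below, were chosen with earlier results of these data known. The shares and medians are therefore descriptive and are no test of a list fixed in advance. With 1 array per medium there is no test, SD or p-value between the media. Each difference is set here against the scatter of log2 ratios between probe sets of the same gene. That scatter had an SD of 0.24 over 4921 genes. It ran from 0.29 in the tertile of genes with the lowest signal to 0.19 in the highest. Probe sets of one gene share the same RNA, so this scatter says nothing about the spread between cultures. The log2 ratios of all 10649 measured genes had a wider SD of 0.44.

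**Figure D1:**
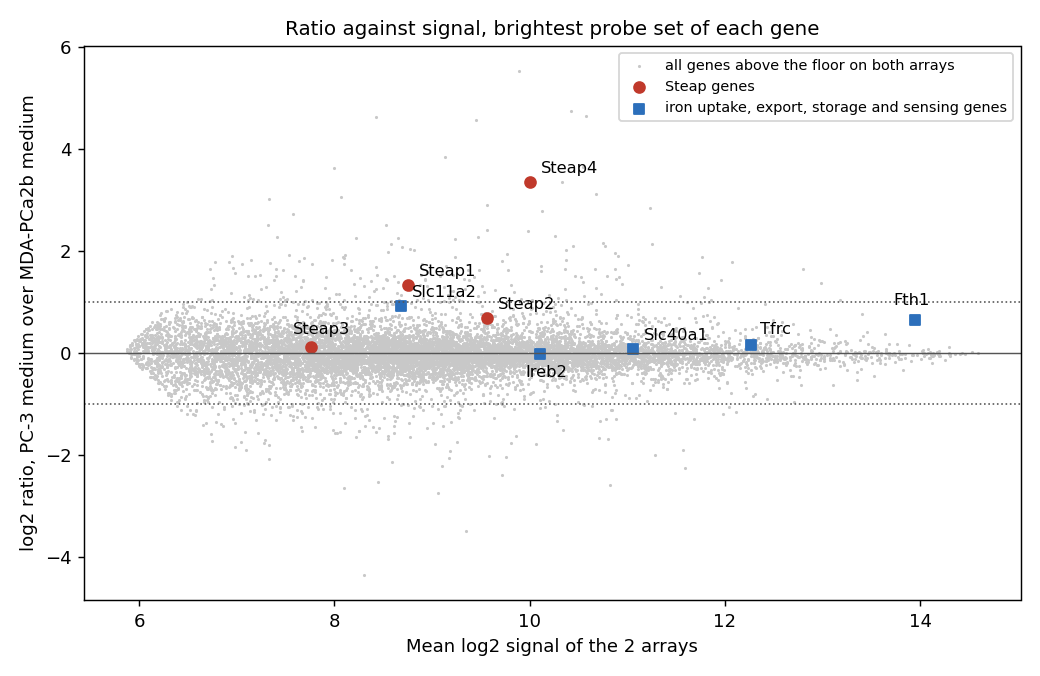
Each grey point is a measured gene; the horizontal axis is its mean log2 signal and the vertical axis the log2 ratio of PC-3 medium over MDA-PCa2b medium, with dotted lines at 2-fold. Steap4 (3.34) and Steap1 (1.33) lie above the upper dotted line, and Ireb2 (-0.02), Slc40a1 (0.06), Steap3 (0.12) and Tfrc (0.16) lie close to 0.

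All 9 genes were measured by their brightest probe set. Of the 27 probe sets 26 were measured, and 1 probe set of Steap2 was not above the floor on either array. Among the 26, 25 gave a higher signal with PC-3 medium and 1, the probe set of Ireb2, a lower one. Of the 18773 measured probe sets of all genes, controls left out, 46.4% gave a higher signal with PC-3 medium. The count of 26 includes 3 array control probe sets for Tfrc, and probe sets of one gene share its RNA and are not replicates.

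The labelled cell type fits the signals of osteoblast markers. The 7 of 10 listed markers with a singly named probe set were all measured, among them the collagen genes Col1a1 and Col1a2 and the bone matrix genes Ibsp and Sparc. Their summed signal was 87585 with PC-3 medium and 92626 with MDA-PCa2b medium, with a median log2 ratio of -0.12. All 7 had a ratio below 0, against 55.9% of all measured genes, and 2 were at least 1.5-fold lower, against 6.23%. Those 2, with the lowest ratios, were the osteocyte matrix gene Dmp1 (-2.05) and the transcription factor gene Sp7 (-0.68). Both cultures also gave signals for macrophage and osteoclast markers: 11 of 14 were measured, while Cd163, Calcr and Oscar were not above it on either. The summed signal of those 14 markers was 23773 with PC-3 medium and 23416 with MDA-PCa2b medium, and their median log2 ratio was 0.06, with Fcgr1 (0.82) and Cd68 (0.59) at the top. A second Fcgr1 probe set passed the floor on the MDA-PCa2b array alone, at 46.5 with PC-3 medium and 58.5 with MDA-PCa2b medium. Of 8 erythroid markers none was measured, and of the 6 with a singly named probe set only Epor was above the floor on one array, that of PC-3 medium; their summed signal was 175 with PC-3 medium and 108 with MDA-PCa2b medium. Adipocyte markers, 4 of 7 measured, summed to 2964 with PC-3 medium and 3253 with MDA-PCa2b medium. Their median log2 ratio was 0.16, with the fatty acid carrier gene Fabp4 at 0.98; Pparg passed the floor on the MDA-PCa2b array alone. The part of these cells in the iron gene signals was not tested. In a whole culture, more cells of one type and more RNA per cell cannot be told apart.

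The Steap proteins are membrane metalloreductases of iron and copper that carry a haem group. Steap2, Steap3 and Steap4 have a domain that binds NADPH; Steap1 lacks it and is thought to work with the other members. Steap4 was first described in mouse as Tiarp, a TNF-induced adipocyte protein, and Steap3 is the endosomal ferrireductase of mouse red cell precursors. The family ran from Steap4 and Steap1 with the highest ratios to Steap3 with the lowest, and for these genes the 250 bases before an annotated start are printed, from RefSeq (GRCm38.p6). Steap4 lies at chr5:7960222-7960471 on the plus strand, Steap1 at chr5:5749318-5749567 on the minus strand, and the Steap3 window, 1 of its 4 annotated starts, at chr1:120270271-120270520 on the minus strand. All are written 5′ to 3′, and capitals mark matches to the motifs named next.
Steap4: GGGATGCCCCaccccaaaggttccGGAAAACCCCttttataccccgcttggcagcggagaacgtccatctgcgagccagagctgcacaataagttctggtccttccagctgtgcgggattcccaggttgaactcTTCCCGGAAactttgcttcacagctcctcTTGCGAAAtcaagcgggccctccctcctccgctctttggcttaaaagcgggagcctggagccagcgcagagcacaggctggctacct
Steap1: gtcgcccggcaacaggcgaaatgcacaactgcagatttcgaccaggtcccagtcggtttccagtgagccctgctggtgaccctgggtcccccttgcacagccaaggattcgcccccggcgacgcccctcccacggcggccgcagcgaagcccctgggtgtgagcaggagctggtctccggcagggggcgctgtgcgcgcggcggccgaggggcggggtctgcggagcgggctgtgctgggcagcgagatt
Steap3: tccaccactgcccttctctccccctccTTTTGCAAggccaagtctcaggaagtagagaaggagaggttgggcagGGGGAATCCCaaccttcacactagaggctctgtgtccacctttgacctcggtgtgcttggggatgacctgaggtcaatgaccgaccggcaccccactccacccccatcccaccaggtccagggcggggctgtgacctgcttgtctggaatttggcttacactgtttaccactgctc

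The motifs searched on both strands were a STAT dimer site (TTCNNNGAA), the NF-kB consensus, a C/EBP site (TTGCNNAA), the antioxidant response core (TGACNNNGC) and the hypoxia response core (ACGTG); they were chosen with the results known. Among 32851 windows of the same length before annotated mouse starts, 7.02% held the STAT motif, 3.90% the NF-kB consensus, 9.56% the C/EBP motif, 10.2% the antioxidant core and 16.6% the hypoxia core. The Steap4 window held the STAT motif as TTCCCGGAA, from 116 to 108 bases before the start, the C/EBP motif as TTGCGAAA, from 87 to 80 bases before it, and 2 matches to the NF-kB consensus farther upstream. All 3 of these motifs together occurred in 8 of the 32851 windows, the Steap4 window among them. This combination, and the pair counted below for Steap3, are those that the printed windows held. Such counts therefore do not test whether either window is unusual. The Steap1 window held none of the 5 motifs. The Steap3 window held 1 NF-kB match, GGGGAATCCC, and 1 C/EBP match that do not overlap, a pair found in 100 of the 32851 windows; it was chosen from the 4 Steap3 windows because it alone held any match, and the others held none of the 5 motifs. Of the 7 genes with an entry, which had 14 annotated starts, 2 had the STAT motif (Steap4 and Steap2), 3 the NF-kB consensus (Steap4, Steap2 and Steap3) and 3 the C/EBP motif (Steap4, Steap3 and Fth1). The antioxidant core was present at 1 gene, Steap2, and the hypoxia core at 2, Steap2 and Tfrc. No entry was found for Slc11a2 and Slc40a1. A match is only a match of letters, and binding was not measured.

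Steap4 gave a signal of 3273 with PC-3 medium and 323 with MDA-PCa2b medium by its brightest probe set. Its second probe set gave 1447 with PC-3 medium and 150.3 with MDA-PCa2b medium. The ratios of the pair, 10.1-fold and 9.63-fold, were nearly equal (log2 ratios of 3.34 and 3.27), and both were far outside the scatter between probe sets. The Steap4 ratio was the 10th highest of the 10649 genes. By the log2 ratio of the 2 arrays, the genes nearest to it were Cxcl9 (3.62) and Gbp2 (3.35) above, and Tgm2 (3.12) and Gfra1 (3.06) below.

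Steap1 gave 686 with PC-3 medium and 273 with MDA-PCa2b medium, 2.52-fold higher. Its second probe set gave 466 with PC-3 medium and 214 with MDA-PCa2b medium, 2.18-fold higher. Both log2 ratios, 1.33 and 1.12, were above the scatter of 0.24, and the first was the 119th highest of all measured genes.

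Steap2 had 5 probe sets, the most of the Steap genes, and 4 of them were above the floor. The brightest gave 958 with PC-3 medium and 598 with MDA-PCa2b medium, and the second 475 with PC-3 medium and 282 with MDA-PCa2b medium. Those were 1.60-fold and 1.68-fold higher. The other two measured probe sets gave smaller log2 ratios of 0.33 and 0.39, so the size of the Steap2 difference depended on the probe set while its direction did not.

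Steap3 gave 226 with PC-3 medium and 208 with MDA-PCa2b medium by its brightest probe set, a log2 ratio of 0.12. Another gave 158 with PC-3 medium and 144 with MDA-PCa2b medium (0.13). The remaining one gave 246 with PC-3 medium and 146 with MDA-PCa2b medium, a log2 ratio of 0.75, 1.68-fold higher. The ratio of Steap3 by its brightest probe set was smaller than the scatter between probe sets, and that of the discordant probe set was larger. Across the family the order of the ratios was therefore Steap4, Steap1, Steap2 and Steap3. The discordant Steap3 probe set and the highest Steap2 probe set had the same log2 ratio of 0.75.

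**Figure D2:**
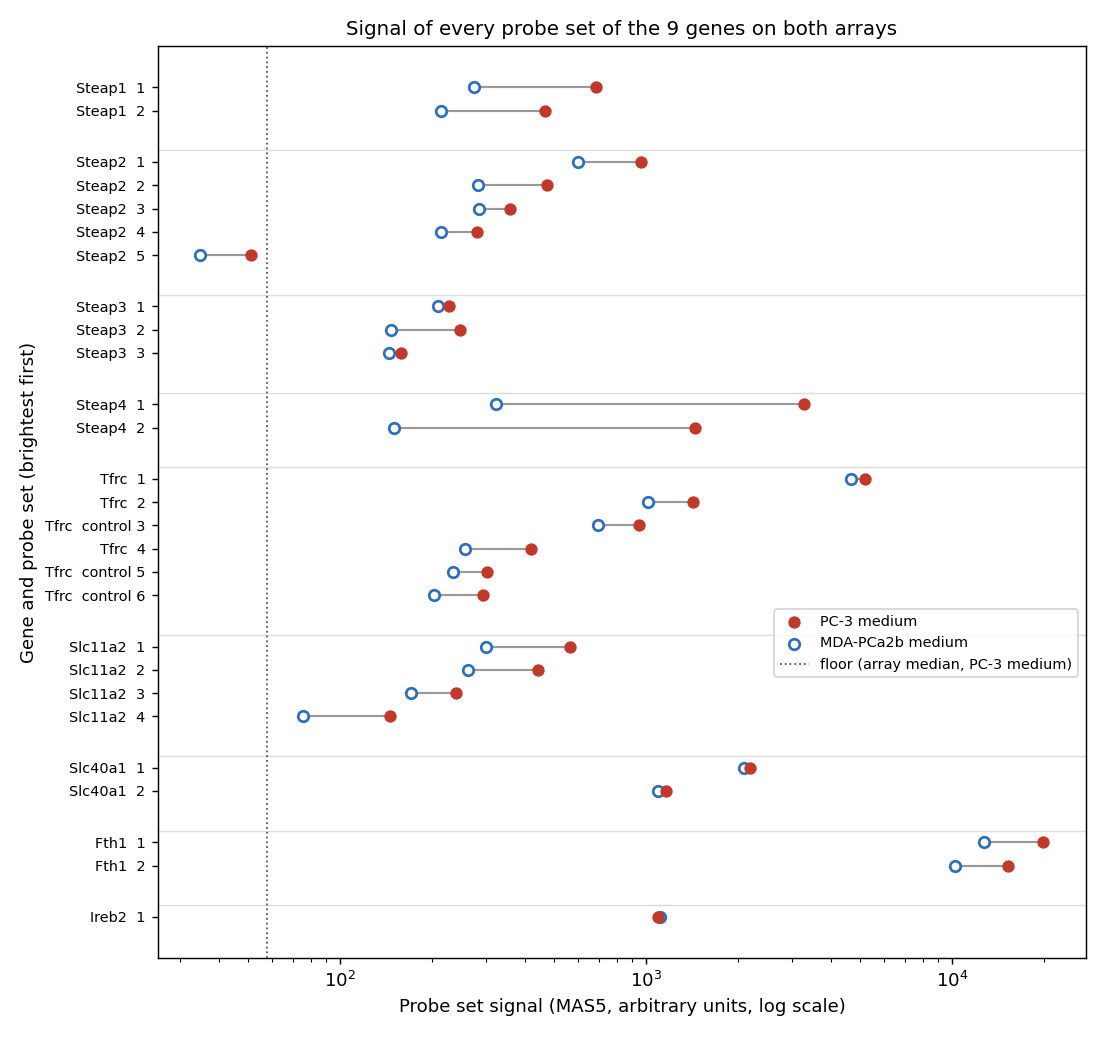
Each row is a probe set of one of the 9 genes, brightest first within a gene; filled points are the array of PC-3 medium and open points that of MDA-PCa2b medium, on a log axis of MAS5 signal, with the floor of the PC-3 array dotted. The wide gap at Steap4 (3273 against 323) contrasts with the near overlap at Slc40a1 (2185 against 2091) and Ireb2 (1095 against 1110.4).

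Between the 2 genes of iron entry among the 9, Slc11a2 had the larger difference by the brightest probe set. It encodes the proton-coupled importer that carries ferrous iron out of the endosome. Its brightest probe set gave 563 with PC-3 medium and 299 with MDA-PCa2b medium, 1.88-fold higher. The other three gave 443, 239 and 146 with PC-3 medium, against 261, 169.6 and 75.2 with MDA-PCa2b medium. All 4 probe sets were higher with PC-3 medium, with log2 ratios between 0.50 and 0.95.

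Tfrc, the gene of the receptor that brings transferrin into the cell, gave 5190.0 with PC-3 medium and 4660 with MDA-PCa2b medium by its brightest probe set. That is a log2 ratio of 0.16, below the scatter between probe sets. A second probe set gave 1423 with PC-3 medium and 1009.9 with MDA-PCa2b medium (0.50), and another 421 with PC-3 medium and 256 with MDA-PCa2b medium (0.72). The mean over these 3 probe sets was 0.46, so whether Tfrc exceeded the scatter depended on the probe set. The array also carries control probe sets at the 3′ end, the middle and the 5′ end of the Tfrc transcript, which gave 949.7, 293 and 302 with PC-3 medium and 695, 203 and 233 with MDA-PCa2b medium. Their log2 ratios were 0.45, 0.53 and 0.38, all in the same direction. The 3′ signal was 3.14 times the 5′ signal with PC-3 medium and 2.98 times with MDA-PCa2b medium.

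Slc40a1 encodes ferroportin, the only known cellular iron exporter of mammals. It gave 2185 with PC-3 medium and 2091 with MDA-PCa2b medium by the brightest probe set, and 1157 with PC-3 medium and 1090.1 with MDA-PCa2b medium by the other. The log2 ratios of 0.06 and 0.09 were below the scatter between probe sets. With 1 array each, a small difference between the media was not resolvable.

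Fth1 encodes the ferritin heavy chain, which oxidises iron for storage. It gave 19837 with PC-3 medium and 12659 with MDA-PCa2b medium, 1.57-fold higher. Its second probe set gave 15256 with PC-3 medium and 10186 with MDA-PCa2b medium, and the log2 ratios were 0.65 and 0.58. These signals are near the top of the scale, whose highest values were 24562 with PC-3 medium and 24832 with MDA-PCa2b medium, and differences there can be compressed. Among the 169 genes with a mean log2 signal of at least 13, a limit chosen after the values were seen, Fth1 had the 3rd highest ratio; their median log2 ratio was -0.03. Ferritin heavy chain has processed pseudogenes and related genes with similar sequence, so its probe sets may take signal from more than one transcript.

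Ireb2 encodes iron regulatory protein 2, which cells with enough iron degrade as a protein. Its only probe set gave 1095 with PC-3 medium and 1110.4 with MDA-PCa2b medium. This log2 ratio of -0.02 was the only negative one among the 9 genes. The array measures the transcript, and the protein was not measured.

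Bound by an iron regulatory protein, an iron-responsive element in the 3′ part of a transcript slows its decay, and one in the 5′ part blocks its translation. Of 4 listed transcripts with a 3′ element, 1 was at least 1.5-fold higher, Slc11a2, against 5.18% of all measured genes, and 1 at least 1.5-fold lower, the kinase gene Cdc42bpa, against 6.23%. Cdc42bpa gave 775 with PC-3 medium and 1354 with MDA-PCa2b medium, 1.75-fold lower, with a log2 ratio of -0.77 by its second measured probe set. Cdc14a, a phosphatase gene, had a log2 ratio of -0.29 at signals of 70.8 with PC-3 medium and 86.3 with MDA-PCa2b medium. The median of the 4 was -0.07, so they did not share a direction. Of the listed transcripts with a 5′ element, 3 were measured, and their median log2 ratio was 0.65. Epas1, the gene of the hypoxia factor HIF-2 alpha, was 4.28-fold higher at 3611 with PC-3 medium and 844 with MDA-PCa2b medium; the other two were Fth1 and Slc40a1. Alas2 was not above the floor on either array, and Ftl1 had no singly named probe set.

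Beyond the 9 genes, 63 of 69 other listed iron genes had a singly named probe set, and 52 were measured. At least 2-fold higher were 3 of the 52, against 1.9% of all measured genes, and 1 was at least 2-fold lower, against 1.68%. At least 1.5-fold higher were 4, against 5.18% of all, and 2 were at least 1.5-fold lower, against 6.23%. Their median log2 ratio was -0.10, against -0.04 over all genes. Of the 52, 46 (88.5%) were within 1.5-fold, against 88.6% of all measured genes.

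Among other genes of uptake and the endosome, 2 of 10 measured genes reached 2-fold, both higher, against 1.9% of all measured genes higher and 1.68% lower, and the median log2 ratio was 0.28. Slc39a14 encodes ZIP14, an importer of iron and zinc that does not need transferrin. It gave 3740 with PC-3 medium and 1135 with MDA-PCa2b medium, 3.30-fold higher, and its other three probe sets gave log2 ratios from 1.35 to 2.09. Slc39a8, the gene of the related importer ZIP8, gave 179.6 with PC-3 medium and 64.9 with MDA-PCa2b medium, 2.77-fold higher, close to the floor with MDA-PCa2b medium. Its second probe set was not above the floor on either array, at 41.0 with PC-3 medium and 30.5 with MDA-PCa2b medium. Lcn2 encodes lipocalin 2, a protein that binds iron-carrying siderophores. It gave 479 with PC-3 medium and was not above the floor with MDA-PCa2b medium (32.2), so it was at least 8.44-fold higher.

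Other metalloreductase genes lay on both sides of 0. Cybrd1 encodes duodenal cytochrome b, a ferric reductase of the cell surface. It gave 108 with PC-3 medium and 267 with MDA-PCa2b medium, 2.48-fold lower (log2 ratio -1.31, and -0.84 by its second probe set). Cyb561, a related gene, was 1.61-fold higher at 118 with PC-3 medium and 73.5 with MDA-PCa2b medium. The list of 5 measured genes had a median log2 ratio of -0.12.

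Of 6 measured genes of export, ferroxidases and the hepcidin axis none was at least 2-fold different. Of all measured genes, 1.9% were at least 2-fold higher and 1.68% lower. The median log2 ratio of the 6 was -0.11. Heph, the gene of the ferroxidase hephaestin, was 1.58-fold lower at 92.1 with PC-3 medium and 145 with MDA-PCa2b medium. Cp, the gene of the ferroxidase ceruloplasmin, is named after its values were seen: it gave 1284 with PC-3 medium and 929 with MDA-PCa2b medium, 1.38-fold higher. All 7 of its 8 probe sets that were measured were higher, with log2 ratios from 0.38 to 0.82, and the remaining one, above the floor with PC-3 medium only, was at least 4.28-fold higher (243 with PC-3 medium and 12.0 with MDA-PCa2b medium). The haem transporter gene Flvcr2 passed the floor on the MDA-PCa2b array alone and was at least 1.30-fold lower. The hepcidin genes Hamp and Hamp2 were not above the floor on either array. Of 6 measured genes of storage, iron chaperones and iron sensing none reached 1.5-fold, where 88.6% of all measured genes lay within 1.5-fold. Their median log2 ratio was -0.01. The largest ratios were 0.54 for Bdh2, an enzyme gene proposed to act in siderophore synthesis, and -0.50 for Ncoa4, the receptor that takes ferritin to the lysosome. Bdh2 gave 87.4 with PC-3 medium and 60.0 with MDA-PCa2b medium, close to the floor with MDA-PCa2b medium. Ncoa4 gave 1375 with PC-3 medium and 1938 with MDA-PCa2b medium.

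Haem synthesis and breakdown genes had a median log2 ratio of -0.15, and 8 of 11 measured members had a ratio below 0, against 55.9% of all measured genes. The exception at 2-fold was Hmox1, the haem oxygenase that frees iron from haem, at 801 with PC-3 medium and 296 with MDA-PCa2b medium, 2.71-fold higher. Mitochondrial iron and iron-sulphur cluster genes had a median log2 ratio of -0.18. All 14 with a singly named probe set were measured and lay within 1.5-fold, against 88.6% of all measured genes within 1.5-fold, and 10 of the 14 had a ratio below 0, against the same 55.9%. The largest were -0.42 for the assembly factor gene Lyrm4 and -0.41 for the scaffold gene Iscu.

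**Figure D3:**
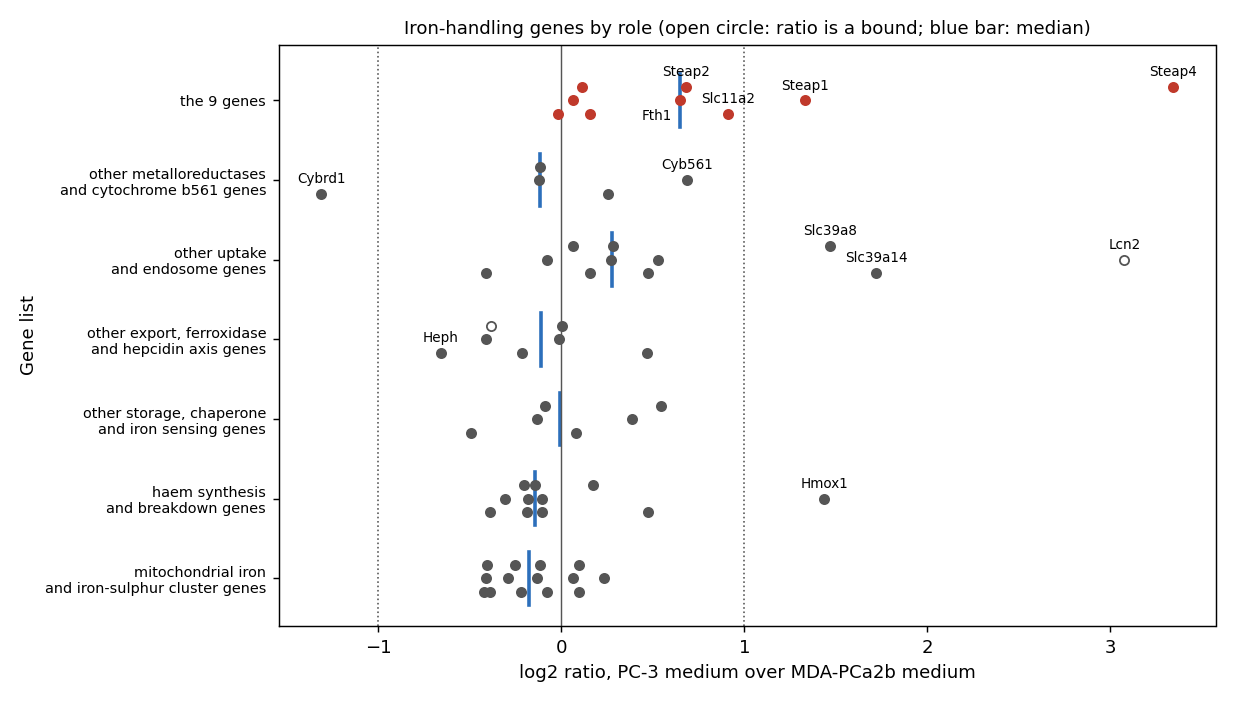
Each point is a gene, placed by the log2 ratio of PC-3 medium over MDA-PCa2b medium; rows are the 9 genes and the 6 other lists by role, blue bars are medians of measured genes, open circles are bounds and dotted lines mark 2-fold. The 9 genes have a median of 0.65 and the mitochondrial list one of -0.18, with Lcn2, Slc39a14, Slc39a8 and Hmox1 to the right and Cybrd1 (-1.31) to the left.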

How the data were processed

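RNA of osteoblasts in PC-3 or MDA-PCa2b medium was measured on 2 arrays, 1 per group, grouped by the source label; the PC-3 sample's title also carries the other line's prefix. Values are intensity on a linear scale: the authors deposited MAS5 probe set signals from GCOS 1.4, as the submitters' processing notes say. Both arrays had the same mean signal without the lowest and highest 2% (300.002), so they had been scaled; the target and any detection calls are not given in the sources used here. Of 45101 probe sets, 64 were controls, and 0 sample columns were left out. Names came from the platform annotation; 932 probe sets with several genes were not named, and older symbols were matched through RefSeq (GRCm38.p6).

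Signals under the 50th percentile of their array were set to it, and log2 PC-3 minus MDA-PCa2b was taken. Each gene was read from its brightest probe set (mean of both arrays); control probe sets were given for Tfrc only. A gene is measured where above the floor on both arrays; otherwise its ratio is a bound. No test was possible with 1 array per group, and the number of arrays limits the precision. Members and lists were chosen with earlier results of these data known. Named were all 9 members and, per other list, genes at least 1.5-fold different and bounds, or otherwise the 2 largest; listed genes with iron-responsive elements, of which 1 is not reported here; and the 2 genes on either side of Steap4. Alternatives tried were a lower floor (25th percentile), a higher floor (75th), no floor with log2(signal + 16), quantile normalisation, median centring, the mean over probe sets, and leaving out probe sets marked x, s or a. Python 3.11.15, numpy 2.4.6, pandas 2.3.3 and matplotlib 3.10.9 were used, and the script was tested on simulated data.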

Additional observations from a re-analysis of the deposited data

How the results depend on the processing

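Under the alternatives that gave them a value, the log2 ratio of Steap4 ranged from 3.28 to 3.38, Steap1 from 1.12 to 1.37, Slc11a2 from 0.78 to 0.95, Steap2 from 0.54 to 0.72 and Fth1 from 0.62 to 0.69. With the mean over probe sets, Tfrc moved to 0.46. Then 4 of the 9 genes rather than 5 were at least 1.5-fold higher, against 5.14% of all measured genes, Steap2 (0.54) falling short. A floor at the 75th percentile left 1 gene at least 2-fold and 3 at least 1.5-fold higher, against 1.39% and 3.73% of all measured genes. The counts fell because Steap1 and Slc11a2 were under that floor with MDA-PCa2b medium, and Steap3 was not measured there either. Of the other iron genes 1 was then at least 2-fold higher and 0 lower, against 1.39% and 0.87% of all. A floor at the 25th percentile gave 2 other iron genes at least 2-fold lower and 4 higher, against 2.80% and 3.13% of all. With log2(signal + 16), 4 were higher and 1 lower, against 2.90% and 2.40% of all. Without probe sets marked x, s or a, 1 gene was at least 2-fold and 3 at least 1.5-fold higher, against 1.87% and 5.36% of all measured genes. Steap4 and Fth1 have no other probe sets and were not counted there. The median of the other iron genes lay between -0.10 and -0.06 under all settings. Over all genes, the 202 at least 2-fold higher and 179 lower of 10649 became 427 and 382 of 13623 at the lower floor. They became 90 and 56 of 6453 at the higher one, and 527 and 436 of 18193 with log2(signal + 16). No paired analysis was possible because each medium has 1 array. With 1 array per medium, a difference of any size could not be set against variation between cultures. The value of 0.24 is 1 SD of the probe set scatter and is no limit of detection. Differences near it could also not be told from that scatter, and signals close to the floor give uncertain ratios.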

Other observations

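In the RefSeq annotation (GRCm38.p6) Steap2 and Steap1 are next to each other on chromosome 5, with 0 listed genes between them, and Steap4 follows on the same chromosome after 16 further listed genes; Steap3 lies on chromosome 1. The genes on chromosome 5 are the 3 with the higher ratios in PC-3 medium. Their neighbours were looked up after these values were seen. Cfap69, a cilium gene beyond Steap2, gave 137 with PC-3 medium and 75.1 with MDA-PCa2b medium, 1.82-fold higher by its brightest probe set. Adam22, farther on beyond Steap4, went the other way, with 123 with PC-3 medium and 200.6 with MDA-PCa2b medium, a log2 ratio of -0.71. Gtpbp10 and Cldn12, farther on beyond Cfap69, had log2 ratios of -0.05 and 0.15. Sri, the sorcin gene between Steap4 and Adam22, gave 1806 with PC-3 medium and 1889 with MDA-PCa2b medium, a log2 ratio of -0.06. Tex47, between Steap1 and Steap4, was not above the floor on either array. Whether position has a part in these ratios was not tested.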
